A study of Mus musculus with 4 samples.

Results

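Solute carriers are membrane proteins that move ions, metals, vitamins, nucleotides, sugars, amino acids and organic anions across the plasma membrane or the membranes of organelles. They are grouped by sequence into families that often share a kind of substrate: Slc25 proteins lie in the mitochondrion, Slc35 proteins carry nucleotide sugars into the Golgi apparatus and endoplasmic reticulum, and Slco proteins take up organic anions. Dividing embryonic stem (ES) cells need them to import nutrients and to supply metals and nucleotides to their organelles.

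The genes described here are those whose symbol begins with Slc and a digit or with Slco in the tables that name the array probes and could be used here. The rule gave 36 genes among 5619 with a symbol, each measured by 1 probe of the deposited table of 25030 genes. They are no even sample of the superfamily. A total of 19 came from a table listed in order along chromosome 1, and all 19 lie on that chromosome. The other 17 came from the end of a list sorted by responsiveness that holds the genes least responsive to overexpressed transcription factors in other ES cell experiments. They were divided by usual substrate into 7 classes.

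Male C57BL/6 mouse ES cells of the line B6R(5) were grown without feeders, and 24 hr after plating received DMSO alone or an inhibitor dissolved in it, with DMSO at 0.2% in all 4 cultures. The inhibitors were PD173074 for the FGF receptor (FGFR inhibitor, 100 μM), PD98059 for the kinase MEK (MEK inhibitor, 25 μM) and BIO for glycogen synthase kinase (GSK inhibitor, 2 μM), and RNA was taken 48 hr later. The doses are those of the study's methods; its list of data sets prints the same figures in mM for all 3, and the files do not settle the unit. ES cell RNA was labelled with Cy3 and hybridised together with Cy5-labelled RNA pooled from 11 mouse cell lines, the reference pool, on 1 array per condition, all 4 on 1 slide. The labels name this pool alone. The study's methods describe a reference with RNA of MC1 cells mixed in for its organ samples. They say of the inhibitor cultures only that RNA was handled as described, so whether MC1 RNA was present here is not settled. Each condition had 1 culture of 1 line, so no spread between replicates could be measured and no test was made. The 3 comparisons share the DMSO array, so an error on it would move a gene alike in all 3.

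The log-ratio is log2 of Cy3 over Cy5, and a log2 fold change is the log-ratio with an inhibitor less the one with DMSO. A gene was called upregulated or downregulated where this passed 1.5-fold and the Cy3 spot was well above background in both cultures compared. The spread given as ± is the robust SD of the log2 fold changes of genes of similar Cy3 signal, which includes real differences between genes and not error alone. The median Cy3 spot signal was 73.8 to 81.7 on the 4 arrays and that of Cy5 118 to 125, before background subtraction. Among ES cell markers, 3 had a named probe, and their log-ratios lay above the reference pool on every array: Tcfcp2l1 at 2.97 to 3.39, Prdm14 at 2.04 to 2.80 and Gbx2 at 3.03 to 4.01. The fibroblast collagen Col3a1 lay far below it, at -7.44 to -7.19, the fibroblast gene Fn1 at -1.72 to -1.33, and the endoderm factor Sox17 above it at 1.73 to 2.21. These markers moved between arrays too: the log2 fold changes with FGFR, MEK and GSK inhibitor were -0.98, -0.22 and -0.22 for Gbx2 and 0.60, 0.10 and -0.16 for Prdm14, and Tcfcp2l1 and Fn1 lay at 0.36 to 0.42 with each of the 3 inhibitors. They were -0.16, -0.25 and -0.07 for Col3a1 and -0.17, 0.11 and -0.37 for Sox17. For Gbx2 the processed Cy3 signal was 8670 with DMSO and 1806 with FGFR inhibitor. Its Cy5 signal fell as well, from 350 to 83.3, so the log-ratio moved less than Cy3. The part of these shifts or of other cell types in the results was not tested, and in bulk RNA fewer cells of a type and less RNA per cell cannot be told apart.

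The results turn on 5 genes, whose 60-base probes follow 5′ to 3′ because each signal is that of 1 such probe. The first is shown with a second, unnamed probe of the same arrays, and the capitals mark the 48 bases that both share.
Slco4c1, probe Z00010009-1: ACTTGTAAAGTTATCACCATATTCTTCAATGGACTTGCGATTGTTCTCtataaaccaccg
Slco4c1, overlapping probe Z00076961-1: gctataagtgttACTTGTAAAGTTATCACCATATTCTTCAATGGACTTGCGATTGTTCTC
Slc11a1, probe Z00023048-1: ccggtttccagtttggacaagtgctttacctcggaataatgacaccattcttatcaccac
Slc40a1, probe Z00035273-1: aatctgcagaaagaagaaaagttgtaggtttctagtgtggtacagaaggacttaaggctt
Slc25a37, probe Z00074975-1: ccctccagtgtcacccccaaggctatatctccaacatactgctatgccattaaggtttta
Slc15a4, probe Z00011153-1: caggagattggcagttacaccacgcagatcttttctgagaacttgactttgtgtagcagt

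FGFR inhibitor upregulated 2 of the 27 solute carriers measured on both arrays, the organic anion transporter Slco4c1 and the metal transporter Slc11a1, and downregulated none. GSK inhibitor upregulated 1 of 26, the lysosomal histidine and peptide transporter Slc15a4, and downregulated none. MEK inhibitor passed 1.5-fold in neither direction for any of 26. Over all genes, FGFR inhibitor upregulated 2.77% and downregulated 2.93% of 16794, MEK inhibitor 0.582% and 0.469% of 16834, and GSK inhibitor 3.01% and 3.53% of 16465. At those shares, 0.749 upregulated genes would stand among 27 solute carriers with FGFR inhibitor, 0.151 among 26 with MEK inhibitor and 0.782 among 26 with GSK inhibitor. Only Slco4c1 with FGFR inhibitor passed 2-fold, a call that ended with median centring (log2 fold change 0.97) and from Cy3 alone (0.86). From the processed signals Slc11a1 with FGFR inhibitor passed it too, at 1.16. Of all genes, 1.39% passed in either direction under FGFR inhibitor, 0.0832% under MEK inhibitor and 1.43% under GSK inhibitor.

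**Figure D1:**
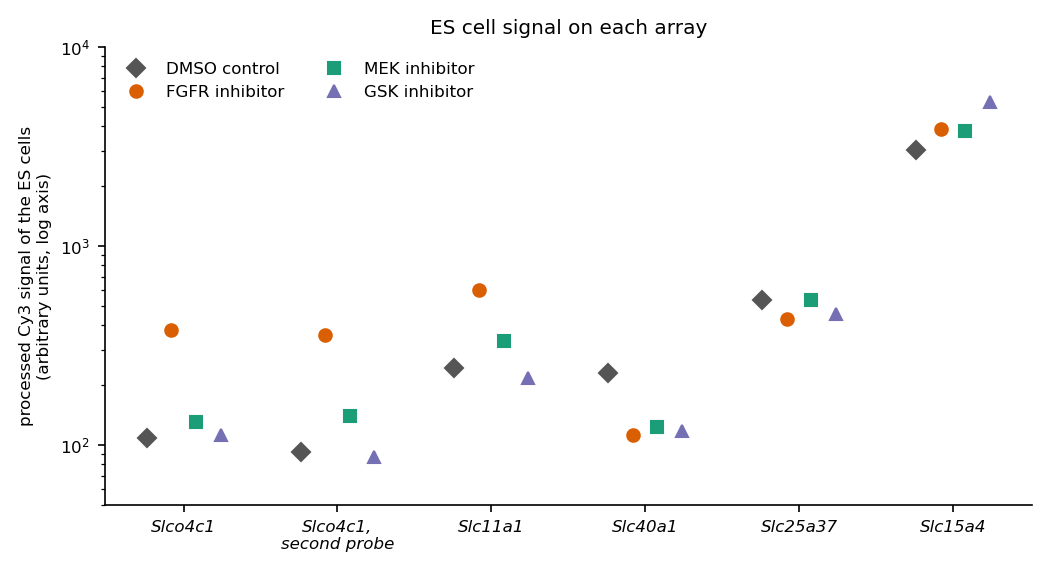
Processed Cy3 signal of the ES cells (arbitrary units, log axis) on each of the 4 arrays for the 5 genes named above and for the second Slco4c1 probe; each point is 1 probe on 1 array. The FGFR inhibitor array stood highest for both Slco4c1 probes and Slc11a1, the GSK inhibitor array for Slc15a4, and the DMSO array for Slc40a1.

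Slco4c1, known for uptake of organic anions and thyroid hormone in the kidney, had a processed Cy3 signal of 108 with DMSO, 377 under FGFR inhibitor, 131 under MEK inhibitor and 112 under GSK inhibitor. The FGFR inhibitor array stood apart, and the MEK inhibitor array came next, nearer to the others. The log2 fold change was 1.26 ± 0.22 (robust SD) with FGFR inhibitor, a 2.39-fold rise, against 0.27 ± 0.16 with MEK inhibitor and 0.11 ± 0.20 with GSK inhibitor. Cy5 was not well above background on any array. The size of the rise moved with the processing: the log2 fold change with FGFR inhibitor was 0.86 from Cy3 alone, quantile normalised with the same offset, and 1.84 from the processed signals, which carry none.

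The overlapping probe printed above had no symbol and was not in the deposited gene table. Its processed Cy3 signal was 92.5 with DMSO, 358 under FGFR inhibitor, 140 under MEK inhibitor and 87.1 under GSK inhibitor. It ordered the FGFR inhibitor array first, as the named probe did, with log2 fold changes of 1.23, 0.40 and 0.02 in the 3 comparisons. It reads the same RNA on the same arrays, so it bears on the error of a spot and not on that of a culture. Over all probe pairs that share at least 40 bases and had Cy3 well above background, the log2 fold changes of a pair differed with a robust SD of 0.13 for FGFR inhibitor (461 pairs), 0.13 for MEK inhibitor (448 pairs) and 0.15 for GSK inhibitor (439 pairs).

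All 6 metal transporters gave a Cy3 signal well above background on every array. Among them 1 gene passed 1.5-fold upward and 1 came close to it downward. Slc11a1, which carries iron and manganese out of phagosomes and is best known from macrophages, had a Cy3 signal of 245 with DMSO, 604 under FGFR inhibitor, 334 under MEK inhibitor and 217 under GSK inhibitor. Its Cy5 signal ranged from 1748 to 1944, so the arrays differed in Cy3. The log2 fold change was 0.72 ± 0.25 with FGFR inhibitor, a 1.65-fold rise, and 0.13 ± 0.18 and -0.05 ± 0.25 with MEK and GSK inhibitor. From the processed signals the value with FGFR inhibitor was 1.16.

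Slc40a1, ferroportin, is the iron exporter of the plasma membrane and was lower on the 3 inhibitor arrays. Its Cy3 signal was 230 with DMSO, 112 under FGFR inhibitor, 124 under MEK inhibitor and 118 under GSK inhibitor, while Cy5 ranged from 555 to 620. The DMSO array was the high one and the 3 inhibitor arrays lay close together. The log2 fold changes of -0.43 ± 0.19, -0.55 ± 0.18 and -0.45 ± 0.22 did not pass 1.5-fold. From the processed signals, which add no offset to dim spots, they were -0.97, -0.98 and -0.94, past 1.5-fold with each inhibitor. With an offset of 16 they were -0.60, -0.73 and -0.65, past it as well. All 3 values rest on the same DMSO spot.

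The other 4 metal transporters did not pass 1.5-fold. The log2 fold changes of Slc30a5 and Slc30a7, which load zinc into the secretory pathway, lay between -0.14 and 0.21. Those of the zinc importer Slc39a10 were 0.05, -0.14 and 0.24 with FGFR, MEK and GSK inhibitor, and those of the magnesium transporter Slc41a1 were 0.07, 0.14 and 0.28.

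The 6 mitochondrial carriers were measured on all 4 arrays and none passed 1.5-fold. The widest range belonged to Slc25a37, mitoferrin, which brings iron into the mitochondrion for heme synthesis. Its Cy3 signal was 533 with DMSO, 431 under FGFR inhibitor, 538 under MEK inhibitor and 458 under GSK inhibitor. Its Cy5 signal was 1457, 1705, 1813 and 1674 in the same order, lowest on the DMSO array. The log2 fold changes were -0.46 ± 0.25, -0.32 ± 0.19 and -0.35 ± 0.29, and from Cy3 alone the value with MEK inhibitor was -0.10.

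Slc25a28, the other mitoferrin, had log2 fold changes of -0.10, 0.03 and -0.19 with FGFR, MEK and GSK inhibitor. Slc25a38, the glycine carrier needed for heme synthesis, had 0.09, 0.00 and 0.15. The phosphate carrier Slc25a3 had 0.10, 0.28 and 0.31, the last 2 outside the robust SD of 0.16 and 0.23 for genes of its signal. From Cy3 alone these were 0.14 and 0.09, inside it, and the processed Cy5 signal was highest with DMSO, at 109750, and lowest with GSK inhibitor, at 97994. The ATP-magnesium and phosphate carrier Slc25a25 and the outer membrane protein Slc25a46 lay between -0.19 and 0.00.

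Slc15a4 led the class of amino acid, peptide, monocarboxylate and sugar transporters. It sits in lysosomes and endosomes, where it exports histidine and small peptides. Its Cy3 signal was 3038 with DMSO, 3875 under FGFR inhibitor, 3768 under MEK inhibitor and 5310 under GSK inhibitor, against Cy5 of 5198 to 5708. The GSK inhibitor array was the highest and the DMSO array the lowest. The log2 fold change with GSK inhibitor was 0.73 ± 0.28, a 1.66-fold rise, and it kept to 0.72 to 0.83 under all 7 other ways of processing the signals. These ways are not all distinct, and all read the same spots. With FGFR and MEK inhibitor it was 0.24 ± 0.26 and 0.14 ± 0.16.

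Slc45a3, a sugar transporter best known from the prostate, had Cy3 signals of 199, 155, 128 and 173 with DMSO, FGFR, MEK and GSK inhibitor. Its log2 fold change of -0.43 ± 0.16 with MEK inhibitor was under the threshold, and it was -0.78 from the processed signals. Slc38a10, of an amino acid transporter family, lay between -0.03 and 0.13. The Cy3 signal of Slc16a14, of the monocarboxylate family, was not well above background on any array.

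Among 5 genes of the nucleotide sugar class none passed 1.5-fold. Slc35f5 varied most, with Cy3 signals of 600, 456, 630 and 418 with DMSO, FGFR, MEK and GSK inhibitor. Its log2 fold changes were -0.38 ± 0.25, -0.09 ± 0.20 and -0.36 ± 0.29 for FGFR, MEK and GSK inhibitor. Slc35a5, Slc35e1, the related sugar phosphate family member Slc37a3 and Slc35b1, which exchanges ATP for ADP in the endoplasmic reticulum, lay between -0.16 and 0.23. A second probe of Slc35b1, with 44 bases in common with the first, gave 0.00, -0.10 and -0.23 where the named probe gave 0.05, -0.03 and -0.16.

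The 4 vitamin transporters held no call. The thiamine transporter Slc19a2 had Cy3 signals of 4768, 4312, 5029 and 5956 with DMSO, FGFR, MEK and GSK inhibitor and log2 fold changes of -0.17 ± 0.22, -0.05 ± 0.15 and 0.35 ± 0.28. The probe of the second thiamine transporter, Slc19a3, gave Cy3 signals of 19.3, 19.8, 42.6 and 62.5 in the same order and was well above background only with MEK and GSK inhibitor. Normalised between arrays, the Cy3 signal of Slc19a3 was 1.12-fold higher with MEK inhibitor and 1.22-fold higher with GSK inhibitor than with DMSO. Both values rest on a DMSO spot not well above background. They allow for no error of a spot and are open to dye bias. The ascorbate transporter Slc23a2 had log2 fold changes of 0.26, 0.02 and -0.08. Slc23a3, an orphan of that family, was well above background with DMSO and FGFR inhibitor only, with Cy3 signals of 30.6 and 36.2 there and 20.5 and 21.3 with MEK and GSK inhibitor. Its change under FGFR inhibitor was -0.03 ± 0.11 on the log2 scale. With MEK and GSK inhibitor its Cy3 signal, normalised between arrays, was 1.18-fold and 1.09-fold lower than with DMSO. These values carry the same limits, since 1 of the 2 spots compared was not well above background.

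In the ion and bicarbonate class only the chloride and bicarbonate exchanger Slc4a3 was measured on all 4 arrays. Its Cy3 signals were 493, 466, 538 and 343 with DMSO, FGFR, MEK and GSK inhibitor, and its log2 fold changes -0.07 ± 0.25, -0.03 ± 0.19 and -0.29 ± 0.29. The chloride transporter Slc26a9 was well above background with GSK inhibitor alone, at 34.7 against 19.4 with DMSO. The named probes of the sodium and proton exchangers Slc9a2 and Slc9a4 were not well above background on any array. An unnamed probe that shares 58 bases with that of Slc9a2 was so with GSK inhibitor, with a Cy3 signal of 34. Of the organic anion class, the urate transporter Slc22a12 and the orphan Slc10a3 lay between -0.17 and 0.16, and Slco5a1, Slco6b1, Slco6c1 and Slco6d1 were not well above background on any array.

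**Figure D2:**
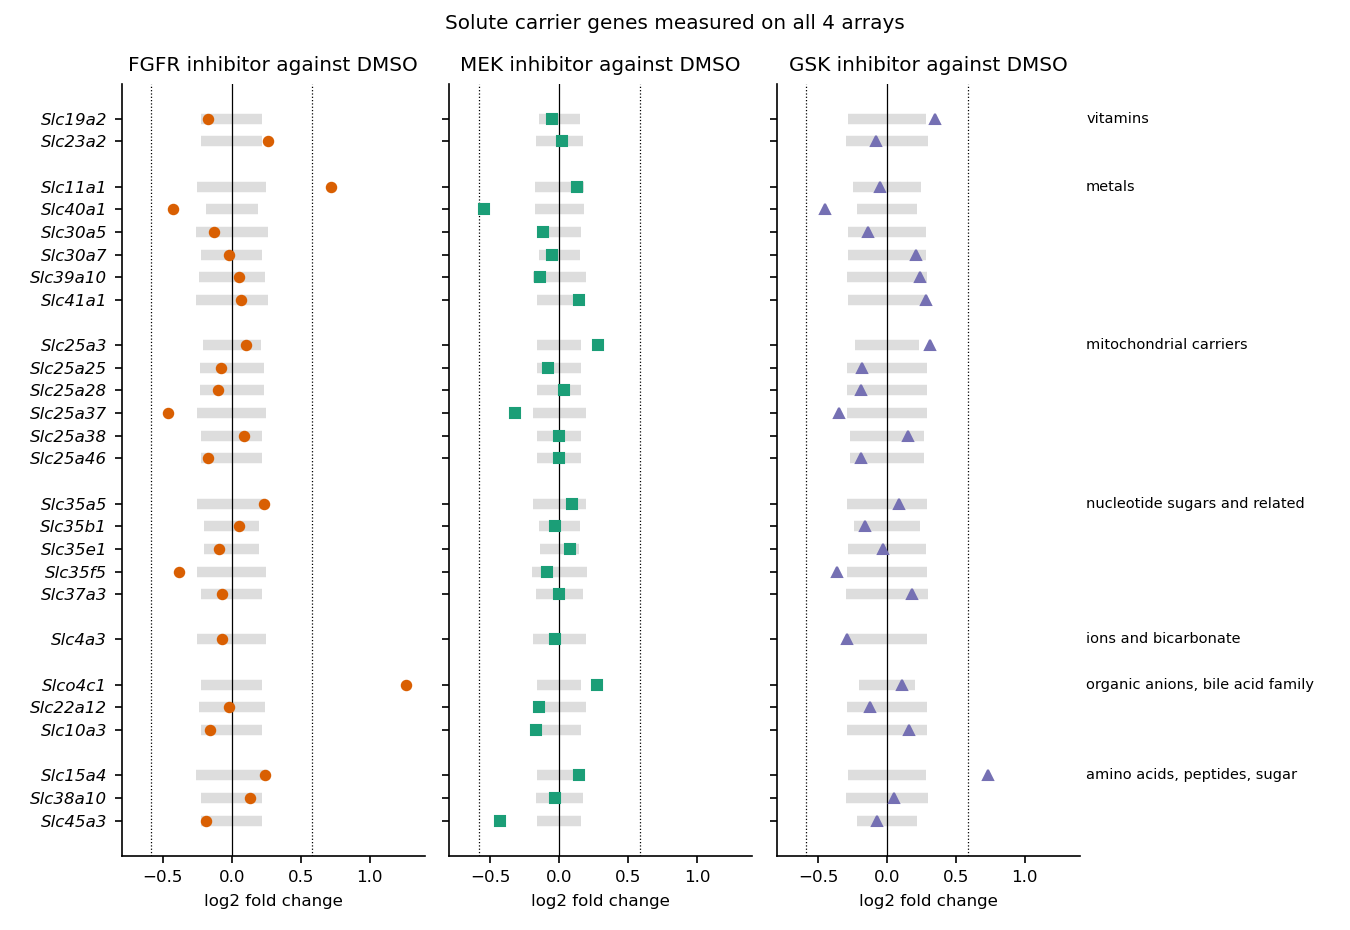
Log2 fold change of the 26 solute carriers measured on every array, for each inhibitor against DMSO (1 array each), grouped by substrate class. Grey bars span the robust SD of genes of similar signal on either side of 0 and dotted lines mark 1.5-fold; only Slco4c1 and Slc11a1 with FGFR inhibitor and Slc15a4 with GSK inhibitor lie outside them.

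Over the measured solute carriers the median log2 fold change was -0.034, -0.032 and -0.038 for FGFR, MEK and GSK inhibitor. Over all genes it was -0.019, -0.011 and -0.003. The median size of the change, without sign, was 0.132, 0.094 and 0.183 for solute carriers and 0.136, 0.109 and 0.161 for all genes. Within the robust SD of genes of similar signal lay 21 of 27 genes for FGFR inhibitor and 20 of 26 for each of the other inhibitors. By its definition the robust SD takes in most genes of similar signal. The share over all genes was not counted, so these counts do not set solute carriers apart. The solute carriers of chromosome 1 ranged from -0.43 to 1.26 with FGFR inhibitor and those of the low-response list from -0.46 to 0.26, but with GSK inhibitor the low-response list held the highest value, 0.73.

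Among 45 measured genes that work beside solute carriers 1 passed 1.5-fold with any inhibitor in either direction. Their probes were named through the same tables, which include the low-response list, so they are no even sample of all genes. At the shares of all genes given above, 45 genes would hold 1.25 upregulated and 1.32 downregulated under FGFR inhibitor, 0.262 and 0.211 under MEK inhibitor, and 1.35 and 1.59 under GSK inhibitor. Ion pumps set the gradients on which many solute carriers run, and 0 of 10 measured pump genes passed 1.5-fold with any inhibitor. The one that varied most was Atp1b1, a subunit of the sodium pump, with log2 fold changes of 0.31 ± 0.20, 0.31 ± 0.14 and 0.55 ± 0.27 with FGFR, MEK and GSK inhibitor. Of 12 mitochondrial channel and import genes none passed, and the pore protein Vdac2 had the widest range, with -0.09, -0.07 and -0.32. Of 13 genes for iron, iron-sulfur clusters and heme, 1 passed: the porphyrin transporter Abcb6 with GSK inhibitor, at 0.61 ± 0.28, against -0.27 ± 0.22 with FGFR inhibitor and 0.06 ± 0.15 with MEK inhibitor. Its Cy3 signals were 4420, 3906, 5055 and 6977 with DMSO, FGFR, MEK and GSK inhibitor. Of 10 measured transporters of solute carrier type whose symbol lacks the prefix none passed, and Mfsd9 varied most, with -0.33, -0.09 and 0.24.

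Against the reference pool, 2 solute carriers were over 2-fold higher in ES cells on all 4 arrays: the zinc importer Slc39a10, with log-ratios of 1.07 to 1.45, and Slc35e1, with 1.24 to 1.42. With an offset of 16 or from the processed signals the count was 3, with Slco4c1 added. For Slco4c1 the processed Cy5 signal was 3.63 to 4.05 and not well above background, so its log-ratio has no fixed size. Lower by over 2-fold on all 4 arrays were Slc11a1 with -2.39 to -1.62, Slc35f5 with -2.08 to -1.70 and the mitoferrin Slc25a37 with -1.80 to -1.33. Of 16225 genes tested, 15.6% were higher and 17.6% lower by this rule, shares that would give 4.06 and 4.57 of 26 genes. The other mitoferrin, Slc25a28, lay at 0.22 to 0.45, but at -0.45 to -0.10 with no dye normalization, so its side of the pool is not settled. Dyes were not exchanged, so a dye bias of a probe does not cancel in these log-ratios. With each array only centred on its median no solute carrier was over 2-fold higher on all 4 arrays and 9 were over 2-fold lower. With no dye normalization Slco4c1 alone was higher and 12 were lower.

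**Figure D3:**
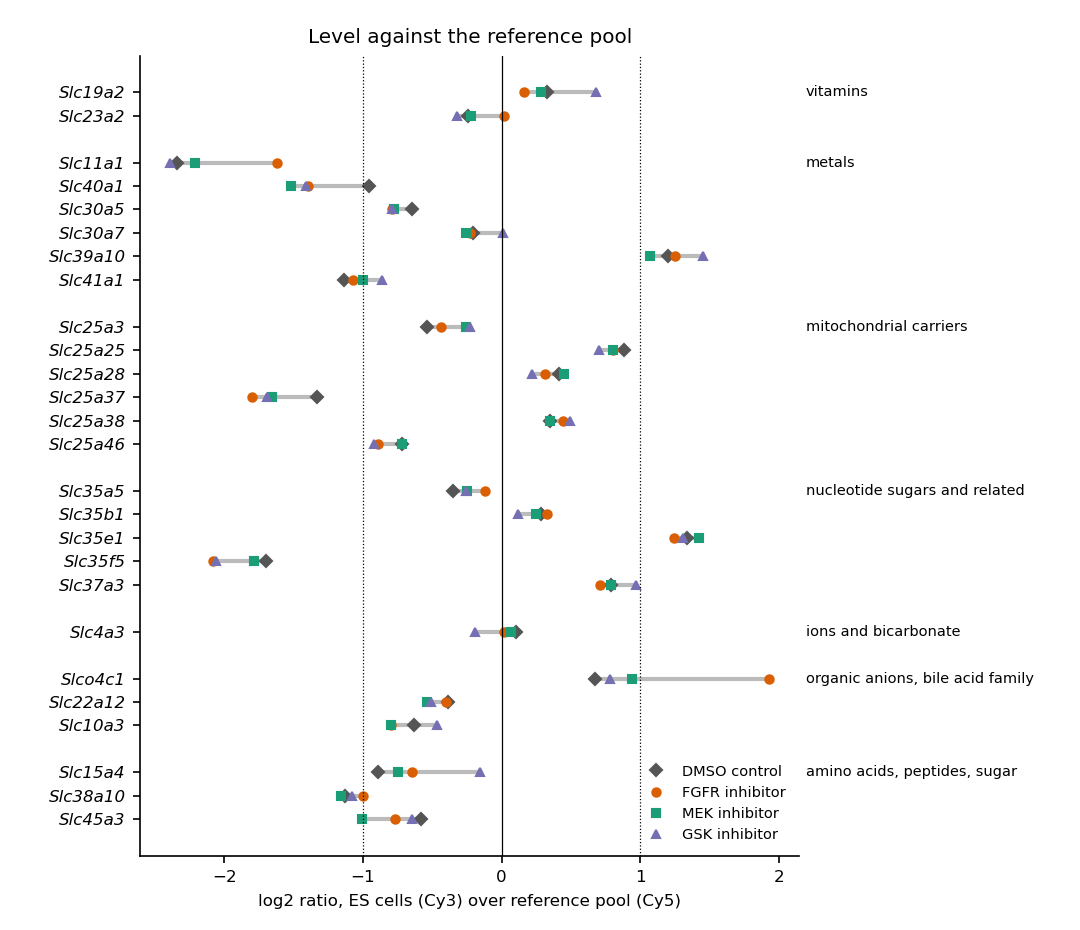
Log-ratio of ES cells over the reference pool for the same 26 genes; each symbol is 1 array, the grey line joins the lowest and highest, and dotted lines mark 2-fold. Slc11a1 lies lowest, at -2.39 to -1.62, and the position of Slco4c1 depends on the offset, since its Cy5 was not well above background on any array.

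Of the 36 solute carriers, 26 were detected (Cy3 well above background) on every array, 3 on some arrays and 7 on none, by their named probes. All 17 of the low-response list were detected on all 4, but so were 100% of the 1994 genes used of that list. Of the 19 on chromosome 1, 9 were detected on all 4, against 63.8% of the 1069 genes used of that table and 64.8% of all genes. Slco4c1, Slco6b1 and Slco6c1 show the split at close range. Slco4c1 and Slco6c1 have 0 protein-coding genes between them in RefSeq, which lists Slco6b1, lying between them, as a noncoding RNA. Slco4c1 was detected on all 4 arrays and the others on none. Slc9a4 and Slc9a2 are neighbours as well, and neither was detected on any array by its named probe.

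The promoters of Slco4c1 and Slco6c1 differ in CG dinucleotides, the sites of DNA methylation in mammals, which cluster at the promoters of many genes active in most cells. They are printed from 250 bases before to 50 after the start in RefSeq (build GRCm38.p6, both on the minus strand), with each CG in capitals. That of Slco4c1 lies at chr1:96872122-96872421 and holds 21, and that of Slco6c1 lies at chr1:97128254-97128553 and holds 6.
Slco4c1 promoter: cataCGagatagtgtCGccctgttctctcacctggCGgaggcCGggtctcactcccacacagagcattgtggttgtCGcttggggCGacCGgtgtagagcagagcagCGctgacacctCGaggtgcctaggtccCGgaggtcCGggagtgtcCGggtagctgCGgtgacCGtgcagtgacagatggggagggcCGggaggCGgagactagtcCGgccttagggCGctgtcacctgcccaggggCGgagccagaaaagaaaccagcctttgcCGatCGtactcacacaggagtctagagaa
Slco6c1 promoter: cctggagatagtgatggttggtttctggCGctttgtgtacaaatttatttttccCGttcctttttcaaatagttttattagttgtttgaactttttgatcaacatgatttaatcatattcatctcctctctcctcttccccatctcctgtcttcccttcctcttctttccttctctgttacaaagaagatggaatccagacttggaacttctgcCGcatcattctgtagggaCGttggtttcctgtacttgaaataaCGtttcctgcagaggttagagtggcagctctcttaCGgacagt

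A promoter sequence was at hand for 29 of the 36 genes, and where a gene had several starts the one richest in CG was taken. CG reads alike on both strands. At least 21 were held by 27% of 27025 genes with a promoter and at least 6 by 58.2%, and the median was 8. Over the 661 genes of the chromosome 1 table with a promoter the median was 16. On chromosome 1, the 8 solute carriers detected on all arrays had a median of 22 (range 7 to 47), the 3 detected on some had 6 (range 5 to 11) and the 4 detected on none had 7 (range 6 to 13). The same split was seen over all genes of that table, with a median of 21 in 442 genes detected on all arrays and 5 in 153 detected on none, so it is not particular to solute carriers. Slc11a1, with 7, and the urate transporter Slc22a12, with 6, were detected on all 4 arrays with few CG. Among the genes that passed 1.5-fold, Slco4c1 held 21, Slc15a4 23 and Slc11a1 7. No entry was used for Slc40a1, Slc25a37, Slc25a46, Slc9a2, Slc9a4, Slco5a1 and Slc10a3.

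**Figure D4:**
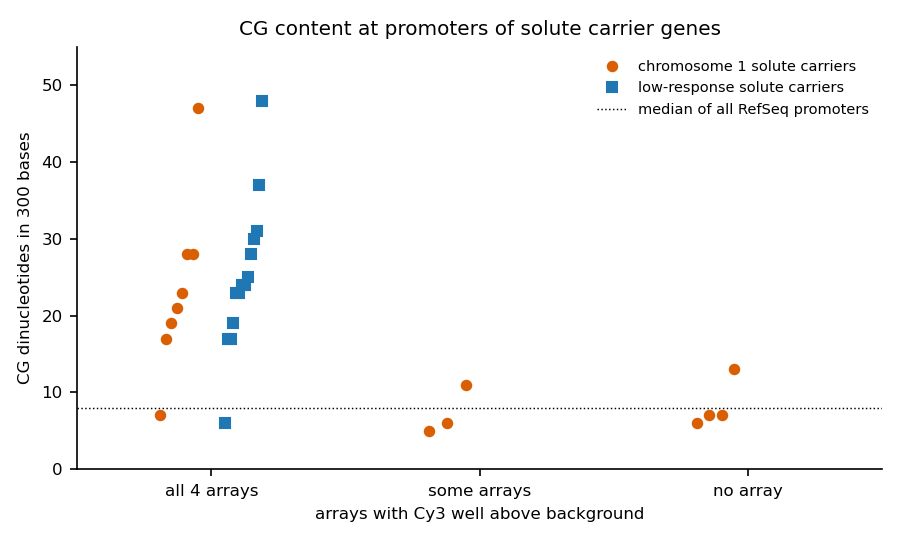
Number of CG dinucleotides in the 300-base promoter of 29 solute carrier genes, by the arrays on which Cy3 was well above background; each point is 1 gene, and the dotted line is the median of all RefSeq promoters, 8. Genes detected on all 4 arrays lie above the line except Slc11a1 and Slc22a12, and those detected on some or none lie between 5 and 13. The median over all genes of the chromosome 1 table, not drawn, was 16.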

How the data were processed

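For 4 arrays of 2 colours the authors deposited scanner files from Feature Extraction 9.5.1.1, which give raw spot and background intensity per channel, processed intensity after the software's own background and dye correction, and the log10 ratio of the latter. A second deposited file holds log10 values of 25030 probes. Its changes between arrays lay within 0.001 of those of the processed ratio of Cy3 over Cy5 for 100% of values, which sets its scale and direction; its array medians were 2.25 to 2.26 and its centring per gene was not used. Probe symbols came from supplementary tables of the study.

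Mean intensity was corrected for median local background in limma 3.58.1 under R 4.3.3 (normexp over all spots, offset 50). The 1417 control spots and 1 to 3 other spots per array marked as outliers were left out, no spot was saturated, and log-ratios were normalized by loess within arrays. The offset draws ratios of dim spots toward 0. Genes were divided by Cy3 signal into 20 groups for the robust SD, 1.4826 times the median absolute deviation. Conditions came from the sample labels and doses from the study's methods. Other figures were computed in Python 3.11.15 with pandas 2.3.3. The normalization alone was tested on simulated arrays and scored on bright spots only. That test does not cover dim spots such as those of Slco4c1 and Slc40a1. Precision is limited by the number of arrays.

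The genes named were every solute carrier, with values on all arrays for those past 1.5-fold and the one of each class with the widest range, and partner genes past 1.5-fold or widest in range. Overlapping probes, promoter CG counts and the extra values for Slc40a1, Slc45a3, Slc19a3, Slc23a3 and Slc26a9 were added after seeing the data. Members and gene lists were chosen with earlier results of these data known. Alternatives tried were other background corrections and normalizations, filters and a 2-fold threshold.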

Additional observations from a re-analysis of the deposited data

Results flagged for a closer look

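Unnamed probes outside the deposited gene table carried signal beside the named ones. The probe that shares 48 bases with that of Slco4c1 had a processed Cy3 signal of 358 with FGFR inhibitor against 92.5 with DMSO. The probe that shares 58 bases with that of Slc9a2, a sodium and proton exchanger, had Cy3 well above background with GSK inhibitor only, at 34 against 19.1 with DMSO, while the named Slc9a2 probe gave 23 and 13.3 and was not well above background on any array.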

How the results depend on the processing

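No paired analysis was possible because there was 1 array per condition. For the same reason no array could be left out, and with a single slide no slide block could be fitted. Of 78 log2 fold changes (26 genes, 3 inhibitors), 3 passed 1.5-fold, and they kept their sign under 7 other ways of processing. Aquantile after loess leaves ratios as they are, and the deposited table repeats the processed signals. Of all 78, the sign was kept in 59 with median centring, 62 with Cy3 alone, 72 from the processed signals, 76 with an offset of 16 and 77 with no background subtraction, and 16 moved by more than the robust SD with median centring. The count with FGFR inhibitor was 2 and stayed at 2 or 3 except with both channels required above background, where it was 1 (Slc11a1), and at 2-fold, where it was 1 (Slco4c1). With MEK inhibitor the count of 0 became 1 with an offset of 16 (Slc40a1 down) and 2 from the processed signals or the deposited log10 table (Slc40a1 and Slc45a3 down). With GSK inhibitor the count of 1 became 2 under each of these 3 settings, with Slc40a1 down, and 0 at 2-fold. Averaging overlapping probes, chosen after seeing the data, left the counts at 2, 0 and 1. Median centring in place of loess moved the median of all genes from -0.011 to 0.102 with MEK inhibitor, and from -0.003 to 0.049 with GSK inhibitor; that of solute carriers moved to 0.149 and 0.037. Against the reference pool, the count of genes over 2-fold higher on all arrays was 2 (Slc39a10 and Slc35e1), 3 with an offset of 16 or from the processed signals (Slco4c1 added), 0 with median centring and 1 with no dye normalization (Slco4c1 in place of both), and the count of lower genes went from 3 to 5 with an offset of 16 or no background subtraction, 9 with median centring and 12 with no dye normalization. Low Cy3 signal limits 10 of the 36 genes, which were not well above background on every array.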
